A study of Mus musculus with 20 samples.

Results

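Kidneys of untreated Col4a3-/- mice were compared with kidneys of wild-type mice across all genes, to describe which nephron segments, cell types and functions differed between them. The comparison used 11 of the 20 libraries of the series, 6 of group Veh and 5 of group WT, which were chosen by their group labels and by no measured value. All 11 were total RNA of kidney from mice of the 129SJ x C57Bl/6J cross, killed at 15 weeks of age. Veh mice carried no intact copy of Col4a3, which encodes the α3 collagen IV chain, and received PBS under the skin once a week from 5 weeks of age. WT mice were littermates with both copies and received no injection, so the effects of the genotype and of the injections cannot be told apart. The whole body lacks the gene in this model, and whole-kidney RNA pools every cell type of the organ.

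Type IV collagen with the α3, α4 and α5 chains forms the mature glomerular basement membrane, and its loss in Alport syndrome lets protein leak into the filtrate. Over time the tubules, the interstitium and the blood-borne cells of the kidney are involved as well. The proximal tubule, which holds most of the RNA of a healthy mouse kidney, recovers solutes and protein from the filtrate and burns fatty acids to pay for it. In whole-kidney RNA fewer cells of a type and less RNA per cell cannot be told apart, and this holds for every marker described here.

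The deposited estimated counts summed to between 28801036 and 29385466 per WT library and between 28474301 and 29253452 per Veh library. The quasi-likelihood test of edgeR was run on counts scaled between libraries by TMM, a method that centres the fold changes of most genes on 0, and genes were called at a Benjamini-Hochberg adjusted p under 0.05. Of 17622 genes tested, 6869 were higher and 5998 were lower in Veh, that is 73.0% called in all, 39.0% higher and 34.0% lower. Veh and WT ranges were separate for 54.9% of the genes, 28.8% with Veh higher and 26.1% with Veh lower. Rises and falls past 3 log2 units were rarer, at 5.84% and 0.999% of the genes. A call alone therefore says little here, and counts of a list are to be read against these shares. With library totals in place of TMM the median over all genes on the log2 scale moved from 0.07 to 0.65 and 81.2% of the calls were higher, so changes are given relative to the TMM centre and small falls depend on that choice. Each of the 11 libraries had counts of Y-linked genes. Libraries were sequenced on 2 flow cells, with 3 WT and 4 Veh libraries on flow cell A and 2 of each group on flow cell B. Mice are called by their library names. Of 220 genes named and tested, 94 overlap another annotated gene, among them Slc34a1, Egf, Timp1, C3, Cd3e, Mki67, Ltbp2 and Dnase1. The strand setting of the counting was not given in the sources used here, so reads of such neighbours could be shared and these values are uncertain to that extent.

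Some Veh libraries stood apart. A16 had the smallest change of the 6 Veh mice in 33 of 69 marker and function lists and the largest in 12. A1, A4 and A9, all of flow cell A, carried RNA of adipocyte genes. Adipoq, which encodes a hormone made by fat cells, was at 29.5, 33.1 and 26.0 CPM (counts scaled to library size after TMM) in A1, A4 and A9, at 2.16, 0.33 and 0 CPM in A16, A19 and A20, and at 0.205 to 1.64 CPM in WT. The extraction protocol in the labels names adipose tissue where the tissue label says kidney. Kidney transcripts were abundant in every library, with uromodulin (Umod), the urinary protein of the thick ascending limb, at 4789 to 5719 CPM in WT and 1796 to 4203 CPM in Veh.

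Col4a3 itself (ENSMUSG00000079465, GRCm38, chr1:82586921-82722059, plus strand, overlapping another annotated gene) lay between 194 and 238 CPM in the WT mice, with a median of 222 CPM. In Veh it ranged from 27.9 CPM through a median of 38.2 CPM to 46.3 CPM, a log2 fold change of -2.52 (SE 0.14, edgeR adjusted p = 7.1e-12), and the groups did not overlap. Of the 65 other tested genes within 5 Mb of it, 73.8% were called, which is close to the 73.0% of all genes.

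The make-up of the RNA was less dominated by a few genes in Veh. The 100 most abundant genes of each library took 35.1% ± 1.11 (SD, n = 5) of the counts in WT and 23.2% ± 1.21 (SD, n = 6) in Veh, with no overlap of the groups (exact two-sided permutation test, p = 0.00216, the smallest it can give, adjusted p = 0.00241 over 10 such measures). Transcripts of the mitochondrial genome fell from 13.1% ± 0.742 to 7.04% ± 0.767 of the counts in the same exact test. Genes with at least 1 count numbered 19863 ± 292 in WT and 21394 ± 101 in Veh. Kap, the androgen-dependent kidney protein of the proximal tubule, gave up the most, from 2.25% ± 0.326 of all counts to 0.183% ± 0.192. Spp1, the secreted phosphoprotein osteopontin, gained the most, from 0.0483% ± 0.00467 to 1.44% ± 0.231. Of the 111 tested genes at 1000 CPM or more in WT, 103 were lower and 3 were higher in Veh. Sorting by the WT level favours falls among these 111, so this count is a description as well. Of the 3719 under 1 CPM in WT, 290 were lower and 2009 were higher, but the filter on low counts and the sorting by the WT level favour rises in this class, since 1184 tested genes were below 10 counts in every WT library and passed through other groups, so the count describes the class and supports no shift.

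**Figure D1:**
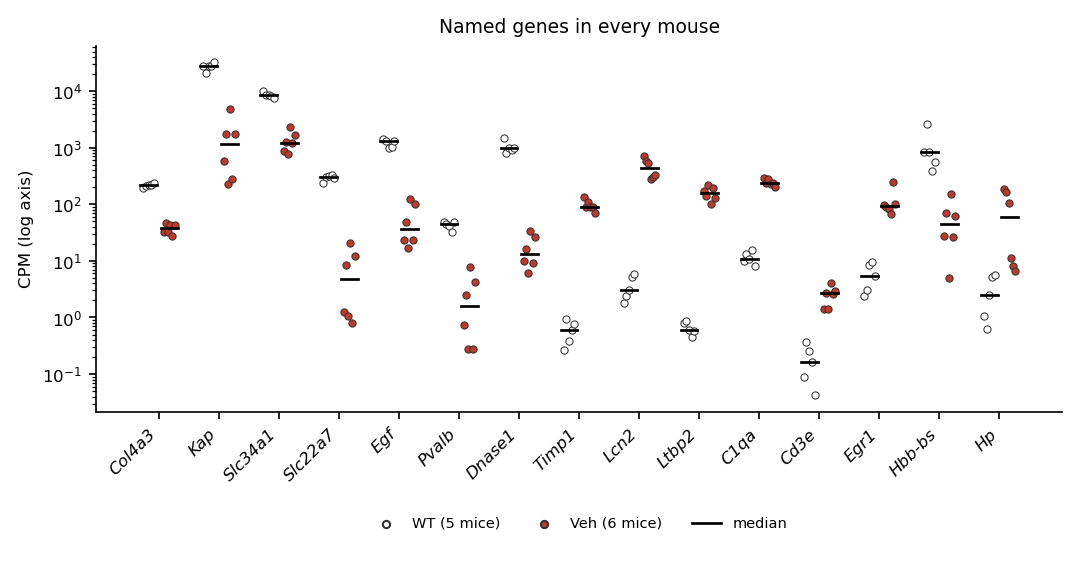
CPM on the TMM scale (log axis) of 15 genes in each of the 5 WT mice (open circles) and 6 Veh mice (filled circles), with the median as a bar. The groups do not overlap for any of them, as for 54.9% of all genes tested, and this was a condition of choice for Ltbp2 and Dnase1. Others of the 15 were named by the size of their change or after their values were seen. The separation is therefore no result of the figure. Hp spreads from 6.66 to 189 CPM among the Veh mice.

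Proximal tubule markers were the most reduced of the nephron. All 14 tested markers of the whole proximal tubule were lower, with a median log2 fold change of -2.39, against 34.0% of all genes lower and a median of 0.07, and the groups did not overlap for any of the 14. Slc34a1, the sodium-phosphate cotransporter of the brush border, was at 7513, 8163, 8460, 8517 and 9932 CPM in WT. In Veh it ranged from 788 CPM through a median of 1224 CPM to 2330 CPM, the highest value being that of A16, with a log2 fold change of -2.66 (SE 0.23, edgeR adjusted p = 2.2e-09). Lrp2, which encodes the protein-scavenging receptor megalin, fell by 2.40 on the log2 scale. The largest fall of this list was that of Ttc36 at -3.12, followed by Miox, the enzyme that starts the breakdown of inositol, at -2.87.

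The list medians differed between the early and late proximal tubule. The 7 markers of the early segment, S1, were all lower with a median of -1.38, and the 11 markers of the late segments, S2 and S3, were all lower with a median of -2.72. In S1 the steepest was Slc6a19, a neutral amino acid transporter, at -2.40, and Slc5a2, the low-affinity glucose cotransporter SGLT2, fell by 1.87. In the late segments Slc22a7, an organic anion transporter, fell by 5.33 and Slc7a13, a cystine carrier of S3, by 4.59, while Slc5a1, the high-affinity glucose cotransporter, had the smallest fall at -0.41, which was 0.18 with library totals and not called there. Slc22a7 was at 238, 288, 301, 323 and 333 CPM in WT. It was at 0.797 CPM in A19, 1.06 CPM in A9, 1.27 CPM in A1, 8.46 CPM in A4, 12.2 CPM in A20 and 20.6 CPM in A16, so the Veh mice differed widely among themselves and all lay below WT. No test of S1 against S2 and S3 was made, and the lists share no gene. Their log2 fold changes overlapped, from -2.40 to -0.72 in S1 and from -5.33 to -0.41 in the late list. Of the late markers 3, Slc7a13, Cyp7b1 and Acsm3, also stand in the male-biased list described next, and their part in the late median was not tested.

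Genes that are higher in male than in female proximal tubules were the steepest block of the tubule. All 12 fell, with a median of -3.44 and no overlap for any. Kap was at 20922, 28087, 28298, 28344 and 32505 CPM in WT and between 232 and 4769 CPM in Veh, with a median of 1154 CPM and the highest value again in A16. Slco1a1, an organic anion transporter, fell by 5.50 and Cyp4a12a, an androgen-dependent arachidonic acid hydroxylase, by 4.22. Of these genes 3 also stand in the S2 and S3 list. Of the 6 female-biased genes 3 rose and 3 fell, with Prlr, the prolactin receptor, at 1.77 and Cyp2a4, a steroid hydroxylase, at -2.94.

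The distal nephron was reduced to a lesser degree, with single genes that fell much further than their segment. In the thick ascending limb 7 of 9 markers were lower and 2 were higher, with a median of -1.10. Slc12a1, the sodium-potassium-chloride cotransporter NKCC2, fell by 1.10 and Umod by 0.90, whereas the claudins Cldn16 and Cldn19, which form the pore for calcium and magnesium, rose by 0.59 and 0.40. Egf, the precursor of epidermal growth factor made in this segment and the next, was at 1003, 1014, 1289, 1335 and 1412 CPM in WT. In Veh its lowest, median and highest values were 16.6, 36.5 and 125 CPM (log2 fold change -4.43, SE 0.43, edgeR adjusted p = 1.3e-08).

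In the distal convoluted tubule 7 of 9 markers were lower and 2 higher, with a median of -1.17. Slc12a3, the thiazide-sensitive cotransporter, fell by 1.85 and Pvalb, a calcium-binding protein of its early part, by 4.03. Its mean was 43.0 ± 6.50 CPM (SD) in the 5 WT mice and 2.66 ± 3.02 CPM in the 6 Veh mice. The magnesium channel Trpm6 and the calcium channel Trpv5 rose by 0.44 and 0.66, and the mice overlapped for both. All 11 intercalated cell markers were lower, with a median of -1.06, among them the chloride-bicarbonate exchangers Slc4a1 (-2.57) of acid-secreting cells and Slc26a4 (-2.04) of base-secreting cells. Erythroid genes fell in the same libraries, with a median of -4.25, and their part in the fall of Slc4a1 was not tested. Insrr, a sensor of alkaline pH, fell by 2.21 and Foxi1, the transcription factor of this lineage, by 0.77.

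Principal cells of the collecting duct were the least changed of the tubule types that fell. Of their 9 markers 5 were lower and none was higher, with a median of -0.44 that turned to 0.12 with library totals and to 0.17 and 0.18 on both FPKM scales. Aqp2, the vasopressin-regulated water channel, was at 350 ± 132 CPM in WT and 236 ± 107 CPM in Veh and was not called (log2 fold change -0.57, SE 0.27, edgeR adjusted p = 0.0605). Its neighbours in the basolateral membrane, Aqp3 and Aqp4, fell by 1.46 and 1.96. In the thin limb 2 of 5 markers rose and 1 fell, against 39.0% higher and 34.0% lower of all genes. Fst, the activin inhibitor follistatin, was at 1.88. The mean log2 CPM of this list ran from 3.74 to 5.85 in WT, a range that holds all Veh mice, at 5.11 to 5.63. Of the 3 macula densa genes Ptgs2, the inducible cyclooxygenase, rose by 2.41 and Pappa2, a metalloproteinase that cleaves a binding protein of insulin-like growth factors, by 1.23, while Nos1, the neuronal nitric oxide synthase, fell by 0.83, with group means of at most 1.84 CPM for all 3.

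**Figure D2:**
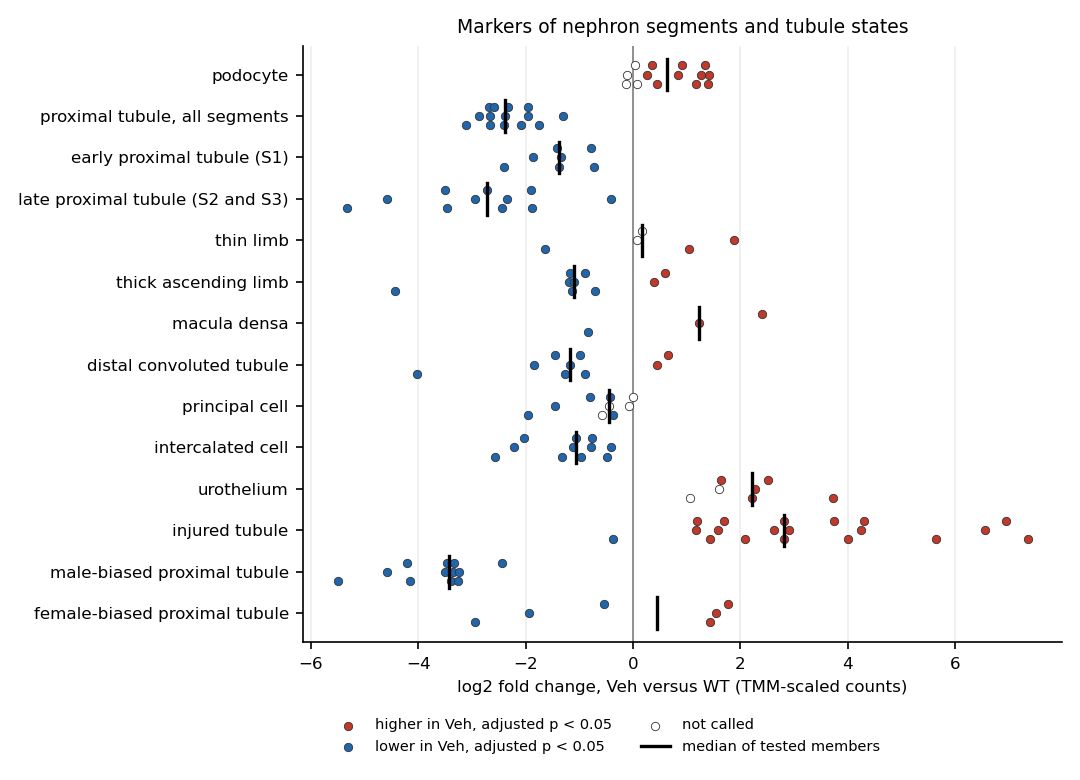
Log2 fold change (Veh versus WT, TMM-scaled counts) of each tested marker of the nephron segments and tubule states, with 1 point per gene. Filled points passed the adjusted p of 0.05 and bars are list medians, which run from -3.44 for male-biased proximal tubule genes to 2.82 for injured tubule genes.

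No podocyte marker was called lower. Of 14 tested, 10 were higher and the other 4 were not called, against 39.0% of all genes higher. Their median was 0.64, against 0.07 over all genes. For 7 of these markers Veh and WT values were fully separate, against 54.9% of all genes, 28.8% with Veh higher. Nphs1, which encodes the slit diaphragm protein nephrin, was at 12.8, 16.1, 18, 18.7 and 25.4 CPM in WT and at 16.4, 19.2 and 21.8 CPM as the lowest, median and highest of Veh, and it was not called (log2 fold change 0.08, adjusted p = 0.59 by edgeR). Plce1, a phospholipase of the podocyte, rose by 1.41. Synpo, an actin-bundling protein, rose by 1.35 without overlap of the mice.

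Markers of injured and regenerating tubule cells rose almost throughout, with 18 of 19 higher, 1 lower and a median of 2.82. Timp1, the tissue inhibitor of metalloproteinases, was at 0.267, 0.380, 0.613, 0.755 and 0.943 CPM in WT. Its lowest, median and highest values in Veh were 71.0, 91.1 and 136 CPM, a log2 fold change of 7.35 (SE 0.35, edgeR adjusted p = 1.3e-12). Fibroblast and macrophage markers, described below, rose in the same libraries, and the part of those cells in Timp1 was not tested. Lcn2, the iron-scavenging lipocalin of the stressed distal nephron, rose from 1.83 to 5.79 CPM in WT to 283 to 710 CPM in Veh, and Krt20, a keratin of injured proximal tubule, rose by 6.56. Havcr1, the phosphatidylserine receptor KIM-1 of injured proximal tubule, rose by 3.74 and Vcam1, an adhesion molecule of unrepaired tubule cells and of activated endothelium, by 5.64. Itgb6, the β6 integrin chain, was the exception at -0.37, a value that was 0.21 with library totals. Havcr1 was highest in A16 at 338 CPM, the mouse with the smallest loss of proximal tubule markers, and lowest in A9 at 124 CPM.

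Urothelial genes were higher in 5 of 7 cases, with a median of 2.22. Krt5, the basal cell keratin, rose by 3.72 and was the only 1 of the 7 without overlap of the groups. Their summed level ran from 5.26 to 84.7 CPM in WT and from 53.4 to 304 CPM in Veh, and the median was 0.14 within flow cell B.

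Turning to the interstitium, all 10 fibroblast and myofibroblast markers rose, with a median of 2.24, against 39.0% of all genes higher. Below 10 counts in every WT library were 4 of 45 tested stromal genes, 3 of 17 of other tissues and 4 of 313 of functions. These passed the filter on low counts through other groups, so counts of the lists that hold them are descriptions. Cthrc1, a secreted protein of activated fibroblasts, rose by 3.78 from a mean of 0.0918 CPM, and Mfap4, a microfibril-associated glycoprotein, by 3.45. Mfap4 was at 2.05, 2.20, 2.22, 2.71 and 3.27 CPM in WT and between 19.6 and 33.2 CPM in Veh with a median of 29 CPM. Among mesangial cells, pericytes and smooth muscle 7 of 9 markers were higher and none was lower, with a median of 1.13. Tagln, the actin-binding protein transgelin, rose by 2.40 and Pdgfrb, the receptor for platelet-derived growth factor B, by 2.03, whereas Myh11, the smooth muscle myosin heavy chain, was not called at 0.32.

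Endothelial markers moved in both directions, with 7 of 15 higher, 2 lower and a median of 0.40, against 39.0% of all genes higher and 34.0% lower. The mean log2 CPM of this list was 4.42 in WT mouse A18 and 5.07 to 5.49 in A3, A6, A14 and A17. Ramp2, a subunit of the adrenomedullin receptor, rose by 0.94 and Eng, a TGF-β coreceptor, by 0.87, while Kdr, the main receptor of vascular endothelial growth factor, fell by 0.78 and Ehd3, which marks the glomerular capillary, by 0.51, a fall that was 0.07 upward with library totals. Of 6 lymphatic endothelial genes 3 rose and 1 fell. Pdpn, which podocytes express as well, rose by 2.90, Lyve1, a hyaluronan receptor, by 1.62 with overlap, and Prox1, the lymphatic master factor that tubule cells also express, fell by 1.32. Schwann cell genes were higher in 4 of 5 cases with a median of 1.41, and Sox10, their lineage factor, rose by 2.10 from a mean of 0.227 CPM.

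Of 119 tested genes in 19 immune lists, 103 were higher and 2 were lower. Of the 119, 34 were below 10 counts in every WT library and passed the filter on low counts through groups where they are higher, so the counts of the immune lists are descriptions. Resident macrophage markers were higher in 9 of 10 cases, with a median of 4.15. C1qa, a chain of the complement starter C1q, was at 8.26, 9.93, 11.0, 13 and 15.8 CPM in WT and at 199, 239 and 293 CPM as the lowest, median and highest of Veh (log2 fold change 4.41, SE 0.19, edgeR adjusted p = 4.9e-13). Ms4a7, a membrane protein of tissue macrophages, rose by 5.44. Folr2, which marks a subset of them in many tissues, was at 2.29 ± 0.614 CPM in WT and 2.31 ± 1.67 CPM in Veh and was not called.

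Other macrophage programmes were higher too. All 5 monocyte genes rose, with a median of 2.07 and Ccr2, the receptor that draws monocytes out of blood, at 3.70. In the lipid-associated list 7 of 8 were higher, with a median of 2.72, led by Gpnmb at 4.93 and Trem2, a lipid-sensing receptor, at 4.81. Lpl, the lipoprotein lipase that other kidney cells also make, fell by 2.84 in the same list, from 868 to 1224 CPM in WT to 99.2 to 189 CPM in Veh. All 6 inflammatory genes rose with a median of 3.97, among them Tnf at 4.57 and Il1b at 4.14, and all 6 genes of alternative activation rose with a median of 2.87, among them Ccl17 at 5.11. Il6 had counts in 1 of the 5 WT mice, at 0.0409 CPM, and was at 0.525 to 1.63 CPM in every Veh mouse.

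Dendritic cell genes followed, with all 10 of the conventional list higher (median 2.32) and all 4 of the plasmacytoid list (median 1.71). Ccl22 rose by 5.17 and Ccr7, the homing receptor of migrating dendritic cells, by 3.97. In the granulocyte lists, of 5 tested neutrophil genes 3 rose, with the cytokine receptor Csf3r at 3.24, while the granule proteins S100a8 and S100a9 were not called and 6 other defining genes, among them Ly6g and Mpo, stayed under the filter. Of 4 tested mast cell and basophil genes 2 rose, led by Cma1 at 2.96. Of 4 eosinophil genes 2 stayed under the filter, and the other two summed to at most 0.127 CPM in WT, so that they could pass it only through groups where they are higher. One of them, Siglecf, had a mean of 0.811 CPM in Veh.

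T cell genes were higher in 10 of 10 cases, with a median of 3.63 and means of 0.843 to 56.6 CPM in Veh. Cd3e, a chain of the T cell receptor complex, was at 0.0419, 0.0891, 0.164, 0.253 and 0.369 CPM in WT and at 1.40, 2.65 and 4.13 CPM as the lowest, median and highest of Veh (log2 fold change 3.75, SE 0.44, edgeR adjusted p = 1.9e-07). Thy1, at 4.64, is also made by fibroblasts and neurons. Of 9 tested cytotoxic genes 6 rose, with a median of 3.85. Cd8b1, the β chain of the CD8 coreceptor, was at 10.2 CPM in A16 and at 1.04 to 2.33 CPM in the other Veh mice, and Gzmb, a granule protease, at 5.89 CPM in A16 and 0.700 to 1.18 CPM in the others. Without A16 the list's median was 3.14.

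Among the smaller lymphoid lists, all 4 regulatory T cell genes rose, with a median of 4.46 and the lineage factor Foxp3 at 5.40, and A19 had the most of it at 6.21 CPM. All 6 checkpoint receptors rose, with a median of 3.31 and Pdcd1, which encodes PD-1, at 5.04. Of the 4 helper T cell genes tested 3 rose, Cd4, Tbx21 and Icos, and 1 fell. In the natural killer list 4 of 5 rose, with a median of 2.27 and the activating receptor Klrk1 at 3.07.

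B lineage genes rose less and overlapped more. Of 7 tested B cell genes 4 were higher, with a median of 1.55 and no overlap for 2 of the 7. In the plasma cell list 5 of 6 were higher, with a median of 2.08. Ighm, the constant region of IgM, rose by 3.25 and was highest in A4 at 198 CPM, against 48.7 to 118 CPM in the other Veh mice. Counts of immunoglobulin segments can be split between near-identical copies. Genes of lymphoid follicles were higher in 7 of 8 cases with a median of 2.50, among them Madcam1, an addressin, at 3.88 from a mean of 0.0421 CPM, Ltb, the membrane-anchored lymphotoxin chain, at 3.65 and the B cell attractant Cxcl13 at 2.91. Bcl6, the germinal centre factor, was not called at -0.02.

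**Figure D3:**
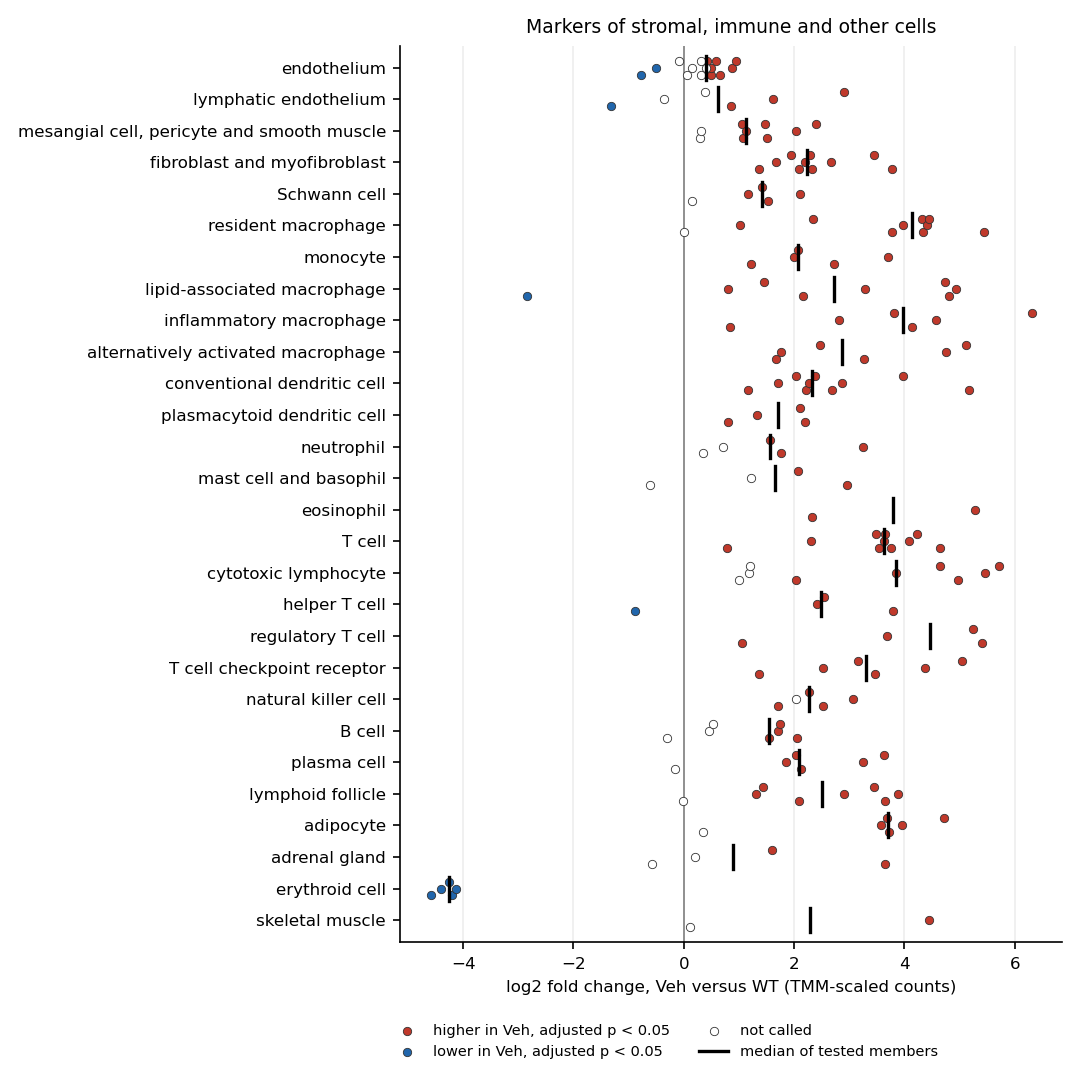
Log2 fold change of each tested marker of stromal, immune and other cells, with 1 point per gene, filled where the adjusted p was under 0.05, and list medians as bars. Nearly all immune points lie to the right of 0, the erythroid points lie between -4.59 and -4.13, and the lipid-associated macrophage list has 1 point at -2.84.

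Genes of other tissues checked what else the samples held. Erythroid genes were lower in 5 of 5 cases, with a median of -4.25 and no overlap for any. The globin gene Hbb-bs was at 383, 560, 830, 843 and 2584 CPM in WT and at 4.93, 45.2 and 150 CPM as the lowest, median and highest of Veh, and Alas2, which starts haem synthesis in red cell precursors, fell by 4.40. Adipocyte genes were called higher in 5 of 6 cases with a median of 3.71, but the mice of both groups overlapped for all 6, their summed level ran from 1.68 to 18.7 CPM in WT and from 0.705 to 419 CPM in Veh, and the median was -0.08 within flow cell B. Of 4 tested adrenal genes 2 rose, the larger being Cyp21a1 at 3.64 from a mean of 0.0337 CPM, and Star was not called. Of the skeletal muscle list Acta1 rose by 4.45 to a mean of 2.48 CPM and Mylpf was not called, and no pancreatic gene passed the filter.

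**Figure D4:**
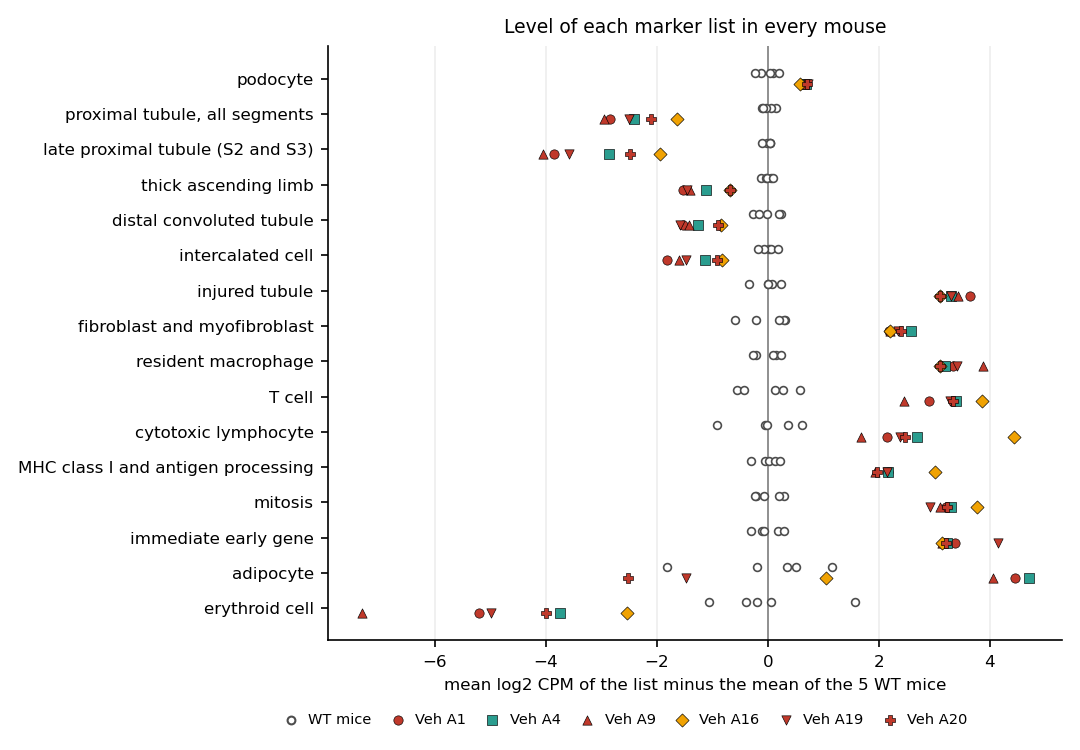
Mean log2 CPM of 16 lists in each mouse, relative to the mean of the 5 WT mice (open circles, upper row of each list; the 6 Veh mice below, each with its own symbol). A16 (diamond) lies closest to WT for the proximal tubule lists and highest for cytotoxic lymphocyte and MHC class I genes, and A1, A4 and A9 lie above the other Veh mice for adipocyte genes.

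Of 15 fatty acid oxidation genes 14 were lower and none was higher, with a median of -1.19, and Acadm, the medium-chain acyl-CoA dehydrogenase, fell most at -2.84, from 1427 to 1626 CPM in WT to 125 to 378 CPM in Veh. All 13 peroxisomal genes fell, with a median of -1.86 and Amacr, a racemase of branched-chain fatty acids, at -3.27. All 12 citric acid cycle genes fell with a median of -1.40, the shallowest fall being that of the citrate synthase Cs at -0.79. The 6 gluconeogenesis genes all fell with a median of -2.45. Pck1, which commits carbon to glucose, was at 1654, 2076, 2091, 2112 and 2887 CPM in WT and at 169, 305 and 460 CPM as the lowest, median and highest of Veh.

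Glycolysis did not move as 1 unit. Of 17 genes 6 were higher and 8 lower, with a median of -0.18 that was 0.40 with library totals. Hk2, the inducible hexokinase, rose by 4.07 from 0.445 to 1.06 CPM in WT to 8.49 to 15.5 CPM in Veh, Hk3, a hexokinase of myeloid cells, by 3.56 and Slc16a3, the lactate exporter MCT4, by 2.66. Pgk1, which makes ATP in the payoff phase, fell by 1.18, and Hk1, the constitutive hexokinase, was not called at -0.02 (0.56 with library totals). The myeloid markers described above rose in the same libraries, and their part in Hk3 was not tested.

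Of 17 amino acid catabolism genes 16 were lower and none was higher, with a median of -2.15, led by Hpd of tyrosine breakdown at -4.62 and Dmgdh of choline breakdown at -2.89. All 5 tested genes of creatine, arginine and carnitine synthesis fell with a median of -2.03, Ass1, which makes the arginine precursor argininosuccinate, by 2.46. Of 12 NAD synthesis genes 10 fell and 1 rose, with a median of -1.02. Haao, a step on the way from tryptophan to NAD, fell by 3.31, while Kynu, earlier on the same way, rose by 1.19 with overlap of the mice. Cholesterol synthesis genes were lower in 9 of 12 cases with a median of -1.07, led by Idi1 at -3.0 and Cyp51 at -2.92, while Fdps and Fdft1 were among those not called.

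Hormone-linked genes were mixed. Of 6 genes of vitamin D, phosphate and Klotho 2 rose and 3 fell, with a median of -0.53 that was 0.07 with library totals. Kl, the coreceptor for the phosphate hormone FGF23, fell by 2.42 and Vdr, the vitamin D receptor, by 1.70, whereas Cyp27b1, which activates vitamin D, rose by 1.79 from 1.77 to 10.2 CPM in WT to 11.8 to 23.7 CPM in Veh. In the renin-angiotensin list 6 of 7 tested genes were lower and none was higher, with a median of -1.33, Ace at -2.49 and renin (Ren1) at -1.33. Agt, the angiotensin precursor, was not called at 0.08.

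Among transcription factors of the epithelium 9 of 13 were lower and 2 higher, with a median of -1.16. Nr1h4, the bile acid receptor FXR, fell by 1.92 and Emx1 by 1.79. Pax2 and Pax8, factors of all nephron epithelium, were not called at 0.08 and 0.11, and Grhl2, a factor of distal epithelia, rose by 0.93. Pparg, the adipogenic nuclear receptor, rose by 1.21 with overlap. It was at 7.96, 7.44 and 4.96 CPM in A1, A4 and A9, the libraries with adipocyte RNA, and at 2.14 to 2.96 CPM in the other Veh mice against 1.64 to 2.25 CPM in WT.

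All 14 mitosis genes rose, with a median of 3.28 and no gene under 2.51, and all 14 S phase genes rose, with a median of 1.45. Mki67, the proliferation antigen, was at 1.55, 1.65, 1.88, 2.41 and 3.9 CPM in WT and at 21.5, 25.1 and 37.6 CPM as the lowest, median and highest of Veh, with A16 the highest (log2 fold change 3.52, SE 0.24, edgeR adjusted p = 1e-10). Bub1, a kinase of the spindle checkpoint, rose by 3.89 and Aurkb, the kinase of the chromosomal passenger complex, by 3.78. Among replication genes the loader Cdc6 rose by 2.87 and the helicase subunits Mcm3 and Mcm5 by 2.47 and 2.21, while the smallest rise was that of Gins2 at 0.47. Of 9 genes of cell cycle arrest and the p53 response 6 rose and 1 fell with a median of 1.53, led by the inhibitor Cdkn2a at 3.33 and followed by Cdkn1a at 2.52, while Ccng1, a p53 target, fell by 0.59, a fall that was not called with library totals or on the FPKM scales, where it was at 0.01, and Mdm2, another, was not called at 0.08.

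The promoter window was the 300 bases from 250 before to 50 after the start site. RefSeq windows were searched, except those of a single chromosome. Of the 12610 tested genes with a searched window 8.83% held the letters TTTNNCGC, a core of the E2F motif, on either strand. Of 11 S phase genes with a searched window 7 held them, 63.6%. The windows of the 3 of them that rose most are given with the match in capitals: Cdc6 at chr11:98907901-98908200 (plus strand), Mcm3 at chr1:20820263-20820562 (minus strand) and Mcm5 at chr8:75109259-75109558 (plus strand), each read 5′ to 3′ along its gene in GRCm38.p6. In Mcm5 the pair of matches overlap.
Cdc6: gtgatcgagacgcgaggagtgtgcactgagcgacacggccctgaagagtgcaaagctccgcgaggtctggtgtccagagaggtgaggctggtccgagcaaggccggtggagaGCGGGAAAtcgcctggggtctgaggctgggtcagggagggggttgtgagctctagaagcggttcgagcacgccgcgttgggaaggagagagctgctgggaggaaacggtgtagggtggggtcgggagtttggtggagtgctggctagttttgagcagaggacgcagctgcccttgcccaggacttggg
Mcm3: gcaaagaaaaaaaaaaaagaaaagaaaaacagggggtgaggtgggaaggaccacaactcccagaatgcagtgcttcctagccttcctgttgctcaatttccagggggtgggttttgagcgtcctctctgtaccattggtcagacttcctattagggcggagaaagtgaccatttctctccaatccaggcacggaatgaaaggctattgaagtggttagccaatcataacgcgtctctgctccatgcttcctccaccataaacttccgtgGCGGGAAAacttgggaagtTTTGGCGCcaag
Mcm5: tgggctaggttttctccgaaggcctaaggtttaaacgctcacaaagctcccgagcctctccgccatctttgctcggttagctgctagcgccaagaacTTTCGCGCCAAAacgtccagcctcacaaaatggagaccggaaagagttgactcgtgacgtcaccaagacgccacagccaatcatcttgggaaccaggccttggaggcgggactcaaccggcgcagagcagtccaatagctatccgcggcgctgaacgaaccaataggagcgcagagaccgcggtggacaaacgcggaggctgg

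In the interferon response list 16 of 17 genes were higher and none was lower, with a median of 2.47. Cxcl10, a chemokine for activated T cells, rose by 4.73, Cxcl9 by 3.97 and Mx1, an antiviral GTPase, by 3.96, whereas Rsad2 was not called at -0.16. Cxcl10 was at 0.891, 1.43, 1.64, 2 and 2.37 CPM in WT and at 15.7, 38.2 and 81.5 CPM as the lowest, median and highest of Veh, with A16 the highest. All 10 MHC class II genes rose with a median of 3.40, H2-DMb2 most at 5.24, and all 10 class I and antigen processing genes rose with a median of 2.27, the immunoproteasome subunit Psmb8 most at 3.26. A16 was above the other Veh mice for both lists, and without it the medians were 3.30 and 2.09.

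The interferon-stimulated response element was searched as GAAA, any 2 bases and GAAA on either strand. It was in 9 of the 13 interferon genes with a searched window, 69.2%, against 3.89% of the 12610 tested genes with such a window. The windows of the 3 with the largest rise follow, with the element in capitals: Cxcl10 at chr5:92348840-92349139 (minus strand), Gbp2 at chr3:142620413-142620712 (plus strand) and Gbp3 at chr3:142559794-142560093 (plus strand). Gbp2 and Gbp3, guanylate-binding proteins that attack pathogen vacuoles, rose by 3.46 and 3.36, and in Gbp3 both matches overlap.
Cxcl10: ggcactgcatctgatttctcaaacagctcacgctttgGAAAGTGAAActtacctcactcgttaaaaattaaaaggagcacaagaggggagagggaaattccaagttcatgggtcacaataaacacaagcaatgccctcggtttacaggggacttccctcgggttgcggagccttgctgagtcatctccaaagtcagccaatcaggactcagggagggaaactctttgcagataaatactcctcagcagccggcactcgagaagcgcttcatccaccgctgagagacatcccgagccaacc
Gbp2: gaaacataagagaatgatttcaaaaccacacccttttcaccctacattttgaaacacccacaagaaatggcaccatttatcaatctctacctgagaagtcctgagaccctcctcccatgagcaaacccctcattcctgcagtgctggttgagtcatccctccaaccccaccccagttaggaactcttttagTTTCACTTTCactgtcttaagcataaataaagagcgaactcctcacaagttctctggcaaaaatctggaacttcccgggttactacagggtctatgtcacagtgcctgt
Gbp3: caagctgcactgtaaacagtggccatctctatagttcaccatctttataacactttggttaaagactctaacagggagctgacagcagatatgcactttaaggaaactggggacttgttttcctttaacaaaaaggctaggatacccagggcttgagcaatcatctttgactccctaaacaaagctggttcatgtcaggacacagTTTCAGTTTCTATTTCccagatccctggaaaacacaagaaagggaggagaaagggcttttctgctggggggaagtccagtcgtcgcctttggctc
A match of letters is a description and shows no binding. For the motif of the macrophage factor PU.1 (GAGGAAGT) the counts were 1 of 8 resident macrophage genes (C1qc) and 1 of 6 lipid-associated genes (Mmp12) against 3.81% of all, and for the E-box CACGTG 5 of 14 circadian genes against 10.9% of all.

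Complement genes were higher in 12 of 14 cases and lower in 2, with a median of 2.66. C3, the central component, was at 22.4, 23.1, 31.0, 31.2 and 31.6 CPM in WT and at 685, 958 and 1383 CPM as the lowest, median and highest of Veh, a log2 fold change of 5.15 (SE 0.26, edgeR adjusted p = 2.5e-12). The anaphylatoxin receptors C5ar1 and C3ar1 rose by 4.59 and 4.55. Cfb, factor B of the alternative pathway, and Cd55, which protects cells from complement, went the other way at -0.66 and -1.08. All 10 genes of inflammasomes and lytic cell death rose, with a median of 2.98 and Casp4, a caspase that senses bacterial lipopolysaccharide, at 3.82.

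In the coagulation and acute phase list 8 of 11 tested genes were higher and none was lower, with a median of 1.77. Lbp, a carrier of lipopolysaccharide, rose by 3.64. Hp, which binds free haemoglobin and is also made by fat cells, rose by 4.76, but it was at 189, 162 and 107 CPM in A1, A4 and A9, the libraries with adipocyte RNA, and at 11.2, 8 and 6.66 CPM in A16, A19 and A20, against 0.615 to 5.54 CPM in WT. The part of adipocyte RNA in its change was not tested. Plau, the urinary plasminogen activator, was not called at -0.22, but was called higher with library totals, at 0.36.

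Stress pathways split. Immediate early genes rose in 11 of 11 cases, with a median of 3.53. Egr2, a zinc finger factor induced by growth signals, was at 0.134, 0.168, 0.169, 0.245 and 0.533 CPM in WT and at 20.4, 24.0 and 41.9 CPM as the lowest, median and highest of Veh (log2 fold change 6.68, SE 0.39, edgeR adjusted p = 1.2e-11). A19 had the most of it and of Egr1, at 245 CPM against 66.9 to 100 CPM in the other Veh mice. In the unfolded protein and integrated stress list 7 of 13 were higher and 1 lower with a median of 0.35. The higher ones included Atf3, a stress-induced factor also in the immediate early list, at 4.55, Trib3 at 2.36 and the asparagine synthetase Asns at 1.21, which lie on the integrated stress arm, whereas the chaperones Hspa5 and Hsp90b1 were not called at -0.01 and -0.18 (0.58 and 0.40 with library totals) and Herpud1 fell by 1.09.

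Of 8 NRF2 targets 3 rose and 4 fell, with a median of -0.22 that was 0.36 with library totals. Slc7a11, the cystine importer, rose by 2.92 and Hmox1, the inducible haem oxygenase, by 0.67, while the glutathione synthesis subunits Gclc and Gclm fell by 2.11 and 1.56 and Nqo1 by 1.31. In the hypoxia list 5 of 8 were lower and none was higher, with a median of -0.59 that was 0.04 and 0.22 on the FPKM scales, Car9, a hypoxia-induced carbonic anhydrase, falling by 2.82 and Vegfa by 1.34. Lysosomal genes split into 7 higher and 5 lower of 16, with a median of -0.05 that was 0.53 with library totals, from Ctss, a cathepsin of antigen-presenting cells, at 4.78 to the galactosidase Glb1 at -1.57.

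Clock genes moved in both directions. Of 15 genes 2 rose and 6 fell, against 39.0% of all genes higher and 34.0% lower. Their median of -0.37 was 0.22 with library totals. Only 4 had fully separate Veh and WT values, against 54.9% of all genes. While 73.0% of all genes were called, 7 of these 15 were not, among them the core activator Arntl and the repressors Per1, Per2 and Per3. Per3 was called higher with library totals, at 0.60, and within flow cell B, at 0.65. The output factors Hlf and Tef, which act on detoxification genes, fell by 2.24 and 1.51, and Bhlhe41, a repressor, rose by 2.21. The hour of killing was not analysed here.

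**Figure D5:**
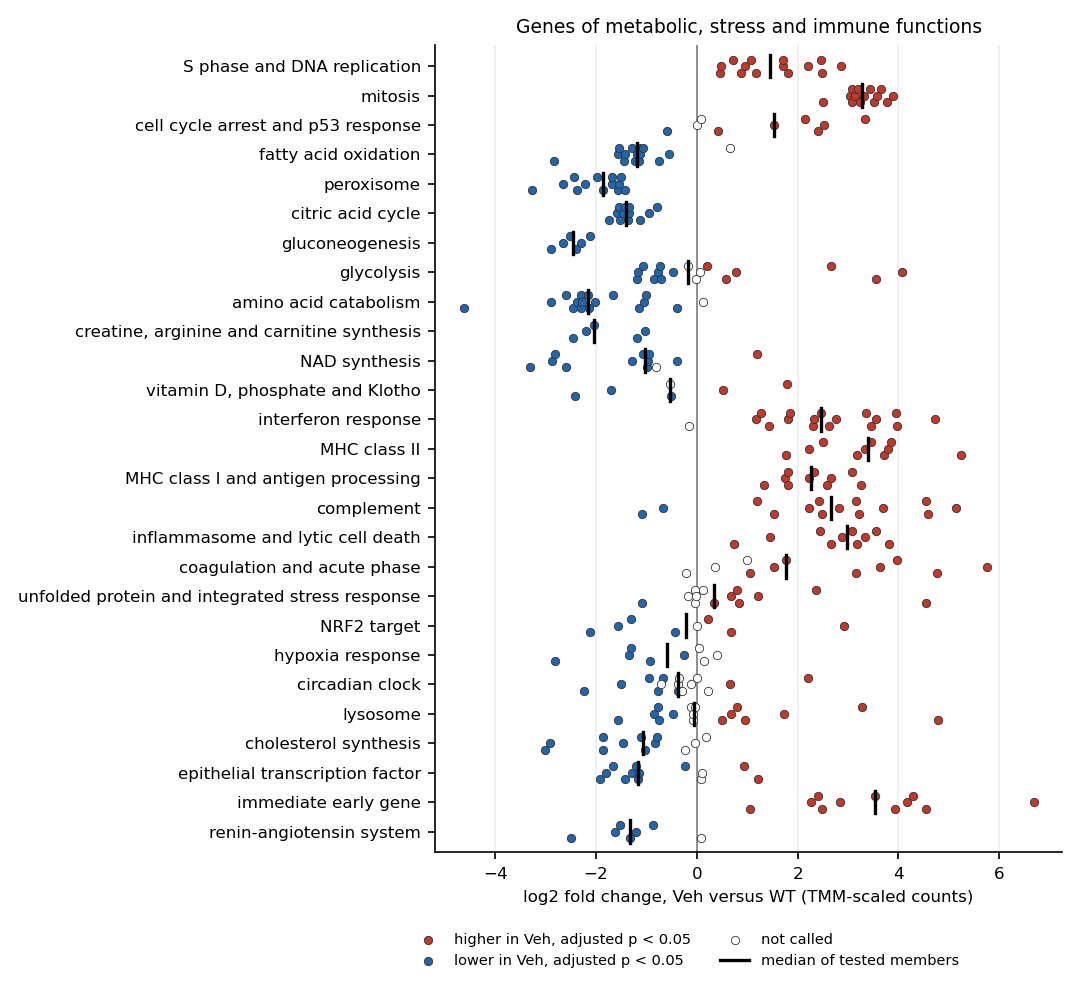
Log2 fold change of each tested gene of 27 function lists, with 1 point per gene, filled where the adjusted p was under 0.05, and list medians as bars. Medians of most metabolic lists lie to the left of 0, those of immune, proliferation and immediate early lists to the right, and glycolysis, lysosome, NRF2, hypoxia and clock lists straddle 0.

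Families of genes with related symbols were counted as well. Of 295 tested solute carriers 179 were lower and 74 higher, with a median of -0.68 that was -0.10 with library totals. Within the 22 Slc22 organic ion transporters 18 were lower and 2 higher, with a median of -2.39. Slc11a1 and Slc15a3, carriers of the phagosome and endosome of myeloid cells, rose by 3.82 and 3.69. Of 58 cytochrome P450 genes 26 were lower and 14 higher, Cyp2d12 falling by 5.33. The vacuolar ATPase, the proton pump of intercalated cells and lysosomes, was lower for 19 of 21 subunits with a median of -0.71 that was -0.13 with library totals.

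In the opposite direction 16 of 19 C-C chemokines rose with a median of 4.37, Ccl2, the attractant of Ccr2-bearing monocytes, by 7.14, while Ccl28, an epithelial chemokine, fell by 3.69 from 124 ± 63.7 CPM to 9.64 ± 3.47 CPM. Of 12 Toll-like receptors 11 rose and Tlr12 fell by 1.32. Of 47 tested metalloproteinases of the Mmp, Adam and Adamts families 39 rose and 4 fell, with a median of 2.09. Of 16 keratins 13 rose and 1 fell. Members near the floor in WT passed the filter on low counts through other groups and could hardly fall. Among these were Ccl20, Mmp7 and Krt17, with at most 1 count in any WT library, so the counts of these families are descriptions. Potassium channels were divided into 32 higher and 15 lower of 66, and the zinc finger proteins named Zfp, at 162 higher and 48 lower of 367 with a median of 0.19, had few called genes for their number. Cytosolic ribosomal proteins were higher for 77 of 97 with a median of 0.47, and mitochondrial ribosomal proteins lower for 75 of 78 with a median of -0.74 that was -0.15 with library totals.

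Outside every list and family, the protein-coding genes with the largest rise and a mean of at least 1 log2 CPM were Ltbp2, a matrix protein of elastic fibres, at 7.93, Dio2, which activates thyroid hormone, at 7.40, and Gabrp, a subunit of a GABA receptor of epithelia, at 7.39. Ltbp2 was at 0.450, 0.587, 0.591, 0.802 and 0.861 CPM in WT and at 99.9, 158 and 222 CPM as the lowest, median and highest of Veh. The next included Adgra1, Bcl2a1b, Ubd, Rgs16, Fcrls, Lgi2, Nkd2 and Msr1, at 5.55 to 6.43. Bcl2a1b has near-identical copies among which reads can be split.

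The largest fall in the same ranking was that of Dnase1, the secreted endonuclease of the kidney, at -5.95. It was at 812, 911, 984, 1008 and 1489 CPM in WT and at 6.08, 13.2 and 33.2 CPM as the lowest, median and highest of Veh. Mfsd2a, a lipid transporter, fell by 4.74, Tbx10 by 4.69, Akr1c14, a steroid dehydrogenase, by 4.48 and Ces2b, a carboxylesterase, by 4.41. The following ones, Nccrp1, Pzp, Azgp1, Mep1b, C8a, Mpped1 and Sec14l3, fell by 3.86 to 4.34. Separate groups were a condition of this ranking and are no result of it.

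At most 3 counts in every WT library and more than 3 in every Veh library were found for 232 genes, and the reverse for 8. Of the 232, 23 reached at least 1 CPM in every Veh mouse. Taking 3 counts per WT library as the floor, Mmp7, a metalloproteinase of injured epithelium, was at least 75.0-fold higher at 10.0 ± 4.46 CPM in Veh. The others included the squamous proteins Sprr2f and Krt17, the Wnt ligand Wnt7a, the collagen Col17a1 of hemidesmosomes, the interleukin Il1f6, the chemokines Ccl20 and Cxcl17, and the T cell genes Foxp3 and Pdcd1. These examples were picked after their values were seen.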

How the data were processed

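Total RNA of mouse kidney was sequenced as paired-end reads on an Illumina HiSeq instrument. Per the study's methods, the authors mapped the reads to GRCm38 with OmicSoft OSA4 and exported gene-level values. The deposited estimated counts were not normalised, and 27.9% of the positive values were not whole, so they were rounded. The deposited FPKM values, made by the authors with another gene model, served only as an alternative, and 3 libraries of that table match no label and were not used.

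Groups came from the labels. Genes passing filterByExpr (count minimum 10, total minimum 15) were fitted in edgeR 4.0.16 (R 4.3.3) over the 20 libraries of all 4 groups, which share one estimate of the spread, with TMM scaling and a quasi-likelihood test of Veh against WT, Benjamini-Hochberg adjusted. limma 3.58.1, DESeq2 1.42.0, other scalings and filters, flow cells and left-out mice were alternatives. Shares of counts were compared with exact permutation tests. p-values measure the spread between mice. In counts simulated for this comparison over 17272 genes, 78.4% of genes changed by 1 and 99% of those changed by 2 on the log2 scale were recovered, and 5.43% of the calls were false. Only 97 and 99 genes were changed there by 1 and 2, against 73.0% of genes called in the data. The simulation therefore cannot tell the error under so wide a change, nor test the TMM centre. Counts of totals and floors cover counting error only.

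The members and lists were chosen with earlier results of these data known. Named by rule were Col4a3 and, in each list, the first member, the 4 called members of largest change and those called against the median. The rule also named the 12 largest rises and 12 largest falls outside lists and families, and the 2 largest rises and falls per family. The former were called protein-coding genes without overlap of the groups and the latter called genes, and both averaged 1 log2 CPM or more. Genes given as not called or as the smallest change of a list, Slc34a1, Spp1 and Umod, and the genes at up to 3 counts in WT were named after their values were seen. Promoter sequences are those of RefSeq, GRCm38.p6, and gene positions follow GENCODE vM21. Some genes of the lists and 1 of the motifs searched are not reported here.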

Additional observations from a re-analysis of the deposited data

Results flagged for a closer look

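Within each group, the highest or lowest mouse was set against the others by the gap to its neighbour relative to the group's range (Dixon's 95% critical value). Of 158 groups tested 13 were flagged, and chance flags about 1 in 20. Levels are the mean log2 CPM of a list's tested genes. A16 accounted for 6 of the flags: it was highest of the Veh mice for cytotoxic lymphocyte genes at 2.33 (others -0.43 to 0.58), MHC class I and antigen processing at 7.78 (others 6.68 to 6.93), MHC class II at 7.49 (others 6.74 to 7.01) and the share of counts in its 1000 most abundant genes at 51.8% (others 48.7% to 49.8%). It was lowest for eosinophil genes at -2.02 (others -0.92 to -0.38) and B cell genes at -0.81 (others -0.30 to -0.16).

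Of the other Veh mice, A19 was highest for immediate early genes at 5.69 (others 4.68 to 4.91) and A9 lowest for inflammatory macrophage genes at 0.66 (others 1.03 to 1.22). Among WT mice, A18 was lowest for conventional dendritic cell genes at 0.10 (others 0.69 to 0.90), A3 highest for gluconeogenesis at 10.49 (others 10.16 to 10.21) and A17 highest for glycolysis at 6.76 (others 6.53 to 6.57). A6 was highest for S phase genes at 2.83 (others 2.45 to 2.56) and for the share of counts in genes of other tissues at 0.551% (others 0.0952% to 0.184%).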

How the results depend on the processing

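With library totals alone 11623 genes were called higher and 2684 lower (81.2% higher). limma on log2(FPKM + 1) called 11851 higher and 2607 lower, and on log2(FPKM + 0.1) 11942 higher and 2621 lower (82% higher in both); the FPKM alternatives change the test, the gene model and the filter as well as the scaling. Within flow cell B alone, with 2 libraries per group, 8010 genes were called, 4199 higher and 3811 lower; fewer samples enter there. In the same order of totals, FPKM + 0.1 and FPKM + 1, the log2 fold change turned upward for Ehd3 (0.07, 0.12, 0.11), Fdft1 (0.56, 0.57, 0.52), Hk1 (0.56, 0.57, 0.56), Hsp90b1 (0.40, 0.38, 0.38), Hspa5 (0.58, 0.56, 0.55), Itgb6 (0.21, 0.21, 0.20), Per3 (0.60, 0.62, 0.47), Plau (0.36, 0.37, 0.37) and Slc5a1 (0.18, 0.20, 0.19), and the principal cell median became 0.12, 0.18 and 0.17. Of these, Fdft1, Hk1, Hsp90b1, Hspa5, Per3 and Plau were called higher in each of those alternatives. Ccng1 was at 0.01 and not called on both FPKM scales, and the hypoxia median was 0.22 and 0.04. With totals the family medians of Abc transporters, glutathione S-transferases and proteasome subunits were 0.38, 0.10 and 0.14. Within flow cell B the adipocyte median was -0.08 with Adipoq at -0.56, and Per3 and Rsad2 were called higher at 0.65 and 0.74. With at least 10 counts in every library, which tests fewer genes, the macula densa median was -0.76 and the helper T cell median -0.82. As shares of summed FPKM the changes from WT to Veh in percentage points were -13.6, -13.9 and -11.5 for the 10, 100 and 1000 most abundant genes, -9.68 for the mitochondrial genome, -5.59 for segment, 0.139 for stroma, 0.569 for immune, -0.521 for other tissue and 0.706 for function genes, the last in the opposite direction to that of the counts. The cause was not tested. Leaving out 1 mouse at a time gave 12491 to 12804 called genes.

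No paired analysis was possible because replicate numbers were given in accession order and pair no mice across groups. WT mice were not injected, the groups differ in flow cell balance, and genes near the filter are limited by depth.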

Other observations

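Immunoglobulin and T cell receptor segments, counted as single genes, were higher for 67 of 94 tested and lower for none, with a median log2 fold change of 2.56, although the mice of both groups did not overlap for only 20 of them. Over all genes 39.0% were higher and 34.0% lower. Segments below 10 counts in every WT library could pass the filter on low counts only through other groups, so these counts are descriptions. Near-identical segments can share reads. Of 554 pseudogenes 120 were higher and 132 lower, with a median of 0.02.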
